A study of Rattus norvegicus with 6 samples.

Results

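The serine synthesis and ATF4 amino acid response was followed through 10 rat genes that have 12 probe sets of a single gene on the array, out of 10037 genes that named a probe set above the signal filter. The genes are the enzymes Phgdh, Psat1, Psph, Shmt2, Asns and Cth and the regulators Atf4, Ddit3, Trib3 and Atf5. The members were chosen by their signals on these same arrays, with the differences between the 3 groups already known. Their values in the 3 groups are therefore given as a description, and no test of them is offered as evidence.

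Serine is made from a glycolytic intermediate by phosphoglycerate dehydrogenase (Phgdh), phosphoserine aminotransferase (Psat1) and phosphoserine phosphatase (Psph). Serine then feeds glycine and folate one-carbon units through serine hydroxymethyltransferases, of which Shmt2 is the mitochondrial form. When amino acids run short or the endoplasmic reticulum is stressed, phosphorylation of the initiation factor eIF2 alpha favours translation of the Atf4 messenger. The ATF4 protein then drives genes of amino acid synthesis, transport and tRNA charging. Because that control acts on translation, the level of Atf4 RNA does not report the amount of ATF4 protein.

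The cells were 3Y1, a line of rat embryonic fibroblasts, stably transfected with empty vector (3Y1/Vector) or with the cytoplasmic domain of MUC1, a mucin of the cell membrane (3Y1/MUC1-CD). Both lines were profiled in culture, and 3Y1/MUC1-CD also as tumors grown in vivo under the skin of the hindlimbs of female athymic mice. Each of these 3 groups (Vector culture, MUC1-CD culture and tumors) had 2 arrays labelled as biological replicates. Cultures were kept in DMEM with serum and glutamine, and tumor RNA was prepared from frozen tissue by homogenization, columns and TRIzol, so the growth setting cannot be told apart from how the RNA was prepared. The labels do not say whether a line was a single clone, so clonal differences cannot be told apart from effects of the transfected domain. Expression of the domain itself was not checked, since no probe set is labelled for it. Values are MAS5 signals, a linear microarray intensity scaled by the authors to the same trimmed mean on each array. Differences are in log2(signal + 16) with the standard error (SE) of limma, a linear model that pools the spread over all probe sets. For dim genes this scale gives too small a change. A gene is called when its limma p value, adjusted over all 18625 kept probe sets by Benjamini-Hochberg, is under 0.05.

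The Vector arrays stood apart in RNA quality. Gapdh signal at the 3' end over that at the 5' end was 11.5 and 17.8 on Vector replicates 1 and 2, and 1.11 to 1.18 on the other 4 arrays. For beta-actin the 2 Vector arrays read 4.15 (replicate 1) and 41.7 (replicate 2) beside 2.97 to 3.37 elsewhere, so by this control replicate 1 lay nearer to the other arrays than to replicate 2. The Vector replicates also differed from each other more than the other pairs (the log2 difference had an SD of 0.616 there, 0.257 for the cultured MUC1-CD pair and 0.284 for the tumor pair). Vector RNA quality and Vector cells cannot be told apart. All 8 fibroblast markers had signals above the filter of 61.6 on at least 1 array of each group. Their summed signal was 109942 and 105452 in Vector culture, 75527 and 77134 in MUC1-CD culture, and 95607 and 99527 in tumors. In tumors, markers of host cells were also present: the summed signal of 9 skeletal muscle markers was 8920 and 8366 on the tumor arrays, against 317 to 470.2 on the culture arrays. The sum of 12 macrophage markers was 7643 and 7617 in tumors, 3102 and 3301 in MUC1-CD culture, and 1024 and 1138 in Vector culture. Cd14 alone gave 2828 and 3052 of the sums in MUC1-CD culture, and without it the sums were 274.4 and 249.8 there, 430.7 and 673.8 in Vector culture, and 4394 and 4328 in tumors. For 9 endothelial markers the sums were 2814 and 2791 in tumors against 477.6 to 576.2 in culture. For 3 erythroid markers they were 3431 and 3532 in tumors against 83.4 to 180 in culture. In these bulk samples, fewer cells of a type and less RNA per cell cannot be told apart.

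**Figure D1:**
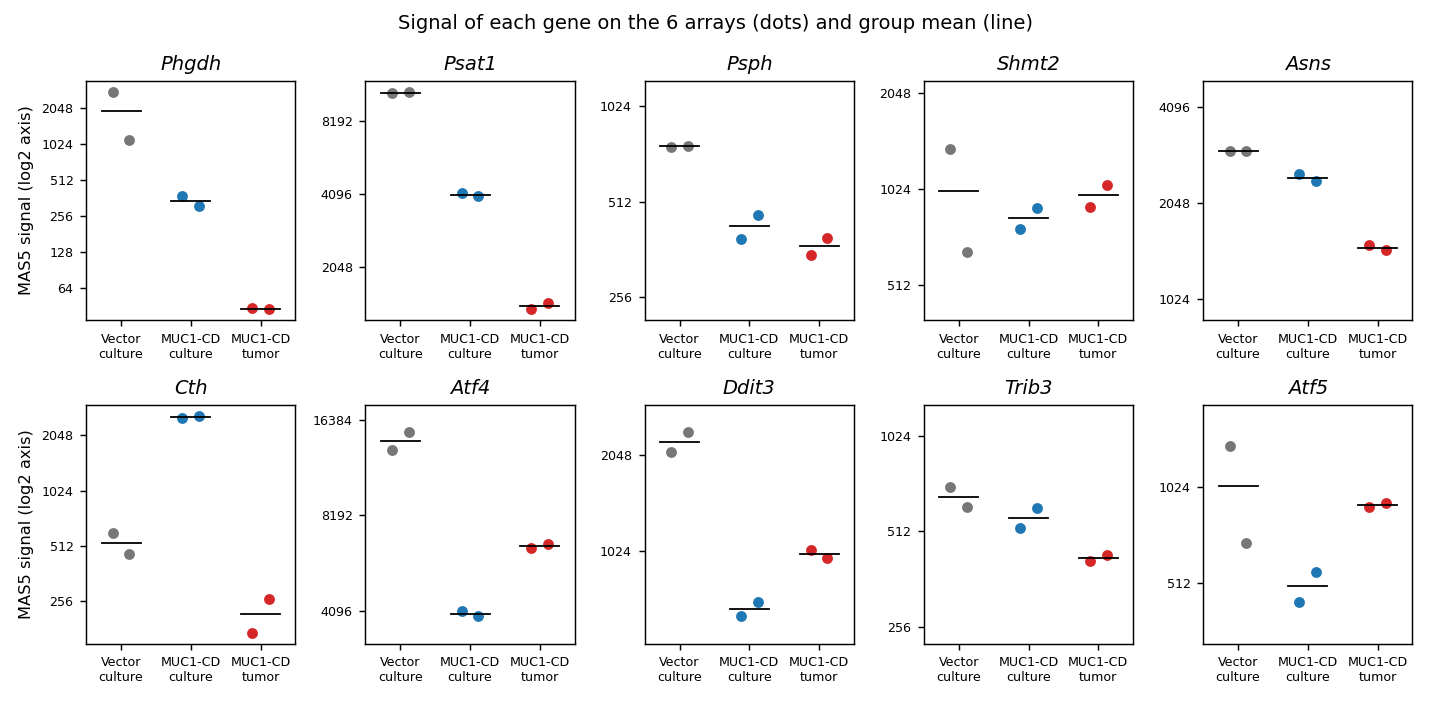
MAS5 signal (log2 axis, scale differs by panel) of the 10 genes on each array, with dots for the 2 replicates of a group and a line at their mean. Phgdh and Psat1 step down from Vector culture to MUC1-CD culture to tumors, Cth peaks in MUC1-CD culture, and Atf4 and Ddit3 are lowest there.

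Phgdh, the enzyme that commits carbon to serine, had the widest range of the 10 genes. Its signal was 2772 and 1100 on the Vector arrays, 374.6 and 307.0 in MUC1-CD culture, and 43.2 and 42.6 in tumors. The groups did not overlap, and every tumor value lay below the filter of 61.6, which the gene passed only through its level in culture. No detection calls were used here to tell the tumor signal from background. The difference was -2.31 (SE 0.40) between MUC1-CD and Vector culture and -2.59 (SE 0.40) between tumors and MUC1-CD culture. Between its replicates the signal differed by 1.32 (log2) in Vector culture, by 0.27 in MUC1-CD culture and by 0.015 in tumors, and the difference between the cultures ranged from -2.97 to -1.65 when 1 Vector array was left out.

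Psat1, the second enzyme, showed the same order with close replicates. It read 10606 and 10758 in Vector culture, 4142 and 4013 in MUC1-CD culture, and 1380 and 1465 in tumors. Each group lay clear of the next, by -1.39 (SE 0.09) and then -1.51 (SE 0.09), which adds up to -2.90 (SE 0.09) from Vector culture to tumors. Psph, the last step, separated Vector from both MUC1-CD groups but did not separate these from each other. Its signals were 760.1 and 768.6 in Vector culture, 391.7 and 465.3 in MUC1-CD culture, and 346.6 and 393.5 in tumors. The second and the third pair overlapped, with a difference of -0.20 (SE 0.16), while MUC1-CD culture was below Vector culture by -0.82 (SE 0.16).

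Shmt2 did not show the step down from MUC1-CD culture to tumors that Phgdh and Psat1 showed. It read 1364 and 650.5 in Vector culture, 769.0 and 895.0 in MUC1-CD culture, and 898.6 and 1057 in tumors. The Vector arrays bracketed both MUC1-CD culture values, and the difference of MUC1-CD from Vector culture (-0.18, SE 0.32) became 0.34 without Vector replicate 1 and -0.71 without Vector replicate 2. No direction against Vector culture can be read for this gene.

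Asparagine synthetase (Asns), a much used readout of amino acid shortage, was lowest in tumors. Its signals were 2982 and 2987 in Vector culture, 2522 and 2395 in MUC1-CD culture, and 1506 and 1455 in tumors. The pairs did not overlap, and the step to tumors (-0.73, SE 0.10) was wider than the step between the cultured lines (-0.28, SE 0.10). Cystathionine gamma-lyase (Cth), which releases cysteine at the end of transsulfuration, was the only member that was higher in MUC1-CD than in Vector culture. It read 603.1 and 464.8 in Vector culture, 2546 and 2625 in MUC1-CD culture, and 172.8 and 264.8 in tumors. The mean signal of MUC1-CD culture was 4.84 times that of Vector culture and 11.8 times that of tumors. MUC1-CD culture thus stood above Vector culture by 2.25 (SE 0.23), and tumors stood below MUC1-CD culture by -3.50 (SE 0.23) and below Vector culture by -1.24 (SE 0.23).

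Among the regulators, Atf4 encodes the transcription factor at the centre of the response, and Ddit3 encodes CHOP, a factor induced downstream of it. Atf4 had signals of 13113 and 14973 in Vector culture, 4082 and 3938 in MUC1-CD culture, and 6474 and 6668 in tumors. Ddit3 had signals of 2090 and 2417, then 635.6 and 704.8, then 1027 and 968.0, in the same order of groups. Both were lowest in MUC1-CD culture and intermediate in tumors, with no overlap between groups. Atf4 differed by -1.80 (SE 0.09) between the cultures and by 0.71 (SE 0.09) between tumors and MUC1-CD culture. The corresponding values were -1.72 (SE 0.14) and 0.56 (SE 0.14) for Ddit3. With each array divided by its median signal, the tumor difference of Ddit3 was 0.30 and no longer called.

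Trib3 encodes a pseudokinase that is induced by ATF4 and CHOP and restrains them. Its brightest probe set read 706.7 and 610.6 in Vector culture, 525.4 and 606.2 in MUC1-CD culture, and 412.0 and 432.0 in tumors. Tumors were the lowest on it, by -0.41 (SE 0.16) against MUC1-CD culture, but the other 2 probe sets put that difference at -0.08 and -0.06, with overlapping arrays. For MUC1-CD against Vector culture the 3 probe sets gave -0.21, -0.73 and -0.40, and the signals of MUC1-CD culture were below those of Vector culture on each of them. Atf5 encodes a related factor whose translation is controlled like that of Atf4. It read 1381 and 686.2 in Vector culture, 445.1 and 553.5 in MUC1-CD culture, and 887.3 and 917.5 in tumors. Both tumor values were above both MUC1-CD culture values (0.84, SE 0.31) and lay between the Vector values, so its tumor difference from Vector culture was 0.39 without Vector replicate 1 and -0.60 without Vector replicate 2.

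**Figure D2:**
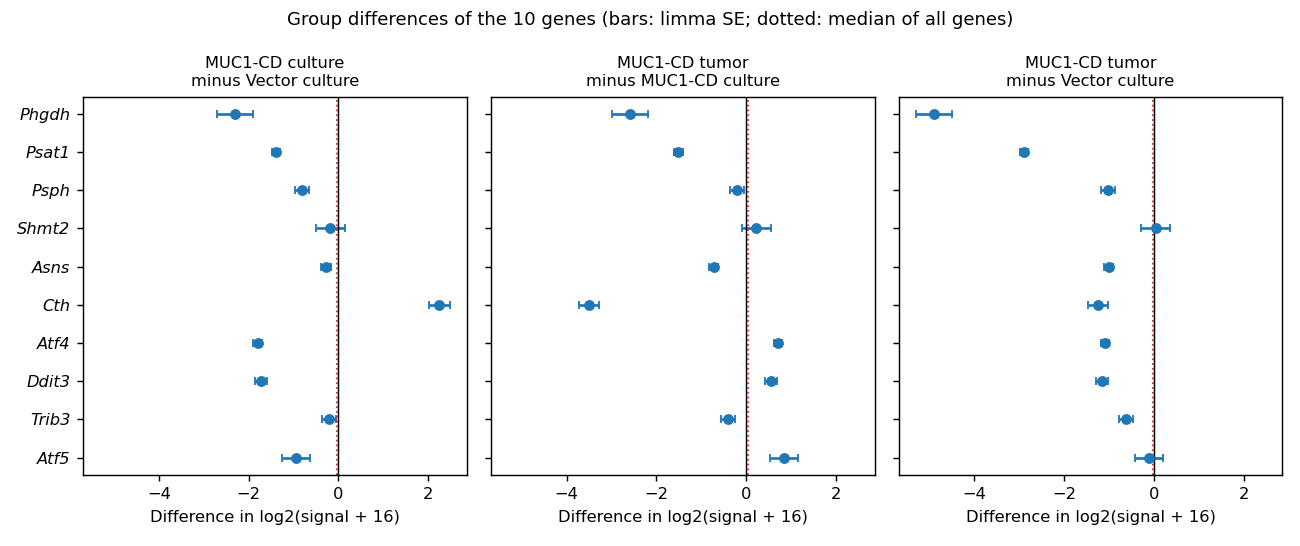
Group differences of the 10 genes in log2(signal + 16), with bars for the limma SE and a dotted line at the median of all 10037 genes. Against Vector culture most points lie left of 0, while tumors against MUC1-CD culture hold genes on both sides, from Cth (-3.50) to Atf5 (0.84).

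Counted together, 9 of the 10 genes were lower and 1 was higher in MUC1-CD than in Vector culture, with a median of -0.88 beside -0.04 over all genes. Of these, 6 were called lower and 1 (Cth) higher, where limma called 24.9% of all genes lower and 21.2% higher (46.1% either way). The arrays did not overlap for 9 of the 10, as for 73% of all genes. Since the genes were chosen with these results known, nothing is read from these counts. Psph and Atf5 were among the calls, but Psph lost its call without MUC1-CD culture replicate 1 and Atf5 without either MUC1-CD culture array or either tumor array. Atf5 was also not called with no signal filter, with eBayes without a trend, or in a fit of only the 4 arrays of the cultured lines, where 6 members were called.

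Between tumors and MUC1-CD culture the members split. Phgdh, Psat1, Asns and Cth were called lower and Atf4 and Ddit3 higher, where 8.97% of all genes were called lower and 9.82% higher (18.8% either way). The arrays of 9 members did not overlap, as for 75% of all genes, and the median of the 10 was -0.30 beside 0.03 over all genes. In a fit of these 4 arrays alone, which leaves out the spread of the Vector arrays, Trib3 (lower) and Atf5 (higher) joined the calls, for 5 lower and 3 higher, where 22.6% of all genes were called lower and 25.9% higher (48.4% either way). When any 1 of these 4 arrays was left out of the fit of all groups, only 2 members (Psat1 and Cth) stayed called, under the assumption that the lone array varied like the other groups. Markers of skeletal muscle, macrophages and endothelium moved with this comparison. Their median differences were 2.98, 3.29 and 1.48 over the 8, 9 and 5 genes above the filter. In MUC1-CD culture, 7 of 9 muscle, 10 of 12 macrophage and 7 of 9 endothelial markers lay below the filter on both arrays. The filter takes the mean over all arrays, so these medians lean toward markers that are high in tumors. The part of host cells in the members' differences was not tested. The probe sets were designed for rat, and how far RNA of the mouse host binds them was not tested.

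From Vector culture to tumors, 8 members were called lower and 0 higher, where 26.6% of all genes were called lower and 24.8% higher (51.4% either way). Shmt2 and Atf5 were not called. The arrays of 8 members did not overlap, as for 75.6% of all genes, and the median was -1.05 beside -0.02. This comparison shares its arrays with the other 2. Scaling the arrays to equal medians moved the all-gene median from -0.04 to -0.36 between the cultures, from 0.03 to -0.23 between tumors and MUC1-CD culture, and from -0.02 to -0.61 between tumors and Vector culture. Relative to the median of all genes, 9, 6 and 9 members lay below it in these 3 comparisons, a count that such a scaling leaves nearly untouched by construction.

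Relative to their own averages, their mean profile went from 0.89 and 0.54 on the Vector arrays to -0.06 and 0.01 in MUC1-CD culture and to -0.74 and -0.63 in tumors. The distance of a member to this mean profile ranged from 0.57 (Psph) to 3.59 (Phgdh) over the 6 arrays. Of 10027 other genes, Ostm1, Rasal2, Clu, Akr1b1 and Dap3 had the profiles nearest to it, at distances of 0.14 to 0.28. These 5 were picked for nearness out of all genes, so their distances are not set against those of the members. Clu, which encodes the secreted chaperone clusterin, read 11335 and 9358 in Vector culture, 6561 and 6752 in MUC1-CD culture, and 4209 and 4133 in tumors.

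**Figure D3:**
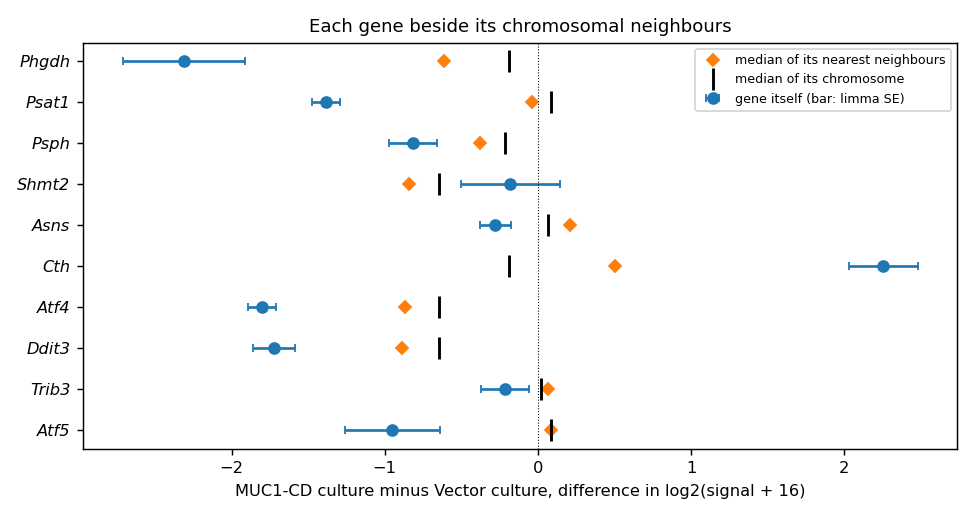
Difference between MUC1-CD and Vector culture in log2(signal + 16) for each gene (dot with limma SE), the median of its nearest tested genes on the chromosome (diamond) and the median of its chromosome (bar). Atf4, Ddit3 and Shmt2 lie on a chromosome whose median is -0.65. Atf4 and Ddit3 lie below the median of their neighbours while Shmt2 lies above its own. The neighbour sets of Ddit3 and Shmt2 overlap.

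Position on the chromosomes moved with some of the differences between the cultured lines. Atf4, Ddit3 and Shmt2 all lie on chromosome 7 in the GRCr8 assembly, where the 653 tested genes other than members had a median of -0.65. Among the nearest 10 tested genes on each side, members left out, 16 of 20 around Atf4 and 17 of 19 around Ddit3 were lower in MUC1-CD culture, with medians of -0.87 and -0.89. Atf4 (-1.80) and Ddit3 (-1.72) were lower than these medians by a further margin, and Shmt2 (-0.18) was higher than its own (-0.84). Ddit3 and Shmt2 lie among each other's nearest tested genes, so their neighbour sets overlap and are not separate regions. The 20 neighbours of Phgdh had a median of -0.61. The 15 tested genes around Cth, which lies near the end of its chromosome's tested genes, included only 2 that were lower, and their median was 0.51. Of the 20 neighbours of Psph, 17 were lower, with a median of -0.38. The neighbours of Asns had a median of 0.21, and those of Psat1, Trib3 and Atf5 had medians between -0.04 and 0.08. Between tumors and MUC1-CD culture, the neighbours' medians ranged from -0.28 (Asns) to 0.25 (Trib3). The part of these regions in the members' differences was not tested.

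The promoter windows of the genes were searched for TGATGNAA, the core of the amino acid response element bound by ATF4 with C/EBP partners, on both strands. Windows ran from 250 bases before to 50 after the RefSeq start in GRCr8. Of the 10 members only Trib3 had a match, while 3.98% of all 33469 windows had one. The windows of the other members hold no such letters, which says nothing of elements farther away. Among the other genes of the pathway the match was found in 7 of 17 windows of cytosolic tRNA synthetases, 5 of 13 of other ATF4 and CHOP targets, 3 of 11 of amino acid transporters, 2 of 8 of other amino acid synthesis genes and 1 of 7 of eIF2 alpha regulators. It was in 0 of 10 folate, 0 of 9 methionine and glutathione, 0 of 16 mitochondrial synthetase and 0 of 11 chaperone windows. The stretches shown here are the one of Trib3, the single member with a match, and those of the 10 list genes that fell between the cultured lines and match upstream of the start. They are written on the gene's strand, with the match (TGATGNAA or its reverse complement) in capitals, from RefSeq sequence of GRCr8.
Trib3 (chr3:161275534-161275570, minus strand): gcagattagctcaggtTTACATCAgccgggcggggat
Mars1 (chr7:65023754-65023786, minus strand): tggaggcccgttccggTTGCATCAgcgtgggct
Tars1 (chr2:62114806-62114845, minus strand): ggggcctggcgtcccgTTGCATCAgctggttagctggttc
Slc7a1 (chr12:11664442-11664481, plus strand): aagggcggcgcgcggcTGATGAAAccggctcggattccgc
Slc38a1 (chr7:129681520-129681559, minus strand): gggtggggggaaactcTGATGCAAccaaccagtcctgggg
Chac1 (chr3:126795948-126795987, plus strand): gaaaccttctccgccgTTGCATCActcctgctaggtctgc
Nupr1 (chr1:190645933-190645972, minus strand): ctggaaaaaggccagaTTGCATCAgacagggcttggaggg
Iars1 (chr17:15193653-15193692, minus strand): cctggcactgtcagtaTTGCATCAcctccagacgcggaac
Slc1a4 (chr14:98761774-98761812, minus strand): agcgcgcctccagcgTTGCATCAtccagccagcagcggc
Ppp1r15b (chr13:47129806-47129845, plus strand): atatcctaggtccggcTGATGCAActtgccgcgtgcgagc
Herpud1 (chr19:10614868-10614907, minus strand): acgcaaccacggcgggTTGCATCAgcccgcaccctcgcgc

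The first base of the match lies 17 bases before the start in Mars1, 21 in Trib3, 24 in Iars1, 27 in Tars1, 30 in Slc7a1, 55 in Nupr1, 142 in Slc38a1, 167 in Chac1, 178 in Ppp1r15b, 184 in Herpud1 and 235 in Slc1a4. A match is a string of letters and was not tested as a bound site.

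The other genes of the pathway were followed in 9 lists, written with earlier results of these data known, and here the limma test applies to each gene. The counts are to be read beside all genes, of which 24.9% fell and 21.2% rose between the cultured lines, and 8.97% fell and 9.82% rose between tumors and MUC1-CD culture. The share of all genes with an unadjusted p under 0.05 was not counted, so nothing is read from list genes at that cutoff. Of the 9 tested list genes on chromosome 7, whose tested genes had a median of -0.65, 8 fell between the lines: Slc38a1, Slc38a2, Mpst, Mars1, Gpt, Pycr3, Creld2 and Slc25a32. The part of the chromosome in these falls was not tested. Among the tested genes of the 9 lists, the lowest value between the cultured lines was that of a transporter, Slc38a1. The next was that of Mpst (-2.43), from another list. Of 11 amino acid transporters tested, 5 fell and 1 (Slc1a5) rose in MUC1-CD against Vector culture, with a list median of -0.57. Slc38a1, a sodium-coupled glutamine carrier, averaged 4727 in Vector culture and 680.5 in MUC1-CD culture and fell by 2.75 (SE 0.17, limma adjusted p = 9.1e-05). The cationic amino acid carrier Slc7a1 fell by 1.40 (SE 0.14, limma adjusted p = 0.00040). Slc3a2, the heavy chain that light-chain exchangers need at the membrane, fell by 1.04 (SE 0.15, limma adjusted p = 0.0018) and in tumors rose again by 0.80 (SE 0.15, limma adjusted p = 0.015) against MUC1-CD culture. The glycine carrier Slc6a9 also rose in tumors and the neutral amino acid carrier Slc1a4 fell. In the fit of all arrays, 2 transporters thus rose and 1 fell there.

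Of 19 cytosolic tRNA synthetases, which join amino acids to their tRNAs, 5 fell (Mars1, Lars1, Tars1, Yars1 and Iars1) and 2 rose (Wars1 and Eprs1) between the cultured lines, a share of falls near that of all genes (24.9%). The list median was -0.22, and -0.41 to -0.07 when 1 array was left out. Mars1 fell by 1.20 (SE 0.12, limma adjusted p = 0.00043) and Lars1 by 0.86 (SE 0.10, limma adjusted p = 0.00078). In tumors, Lars1 fell by a further 0.69 (SE 0.10, limma adjusted p = 0.0060) and Rars1 by 0.60 (SE 0.11, limma adjusted p = 0.014). These were the only calls of the list there in the fit of all arrays. The fit of the 4 arrays of tumors and MUC1-CD culture alone called 9 of the 19 lower and 2 higher. In that fit 22.6% of all genes were called lower and 25.9% higher. Of 13 mitochondrial synthetases, Tars2 and Wars2 fell between the cultured lines and 0 rose. Between tumors and MUC1-CD culture 0 of the 13 passed limma's adjusted threshold and 1 had an unadjusted p under 0.05.

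In folate metabolism, 4 of 12 genes fell and 2 (Aldh1l1 and Mthfd2l) rose between the cultured lines, and leaving out 1 array gave 0 to 8 called. Mthfd1, the cytosolic enzyme that interconverts folate one-carbon units, averaged 5077 in Vector culture, 3624 in MUC1-CD culture and 1294 in tumors. It fell by 0.48 (SE 0.10, limma adjusted p = 0.0071) between the lines. From MUC1-CD culture to tumors it fell by 1.47 (SE 0.10, limma adjusted p = 0.00032). Mthfd1l, the mitochondrial counterpart, fell in tumors by 0.68 (SE 0.14, limma adjusted p = 0.021), and 0 genes of the list rose in the fit of all arrays. Among 8 genes of the methionine cycle, transsulfuration and glutathione synthesis, Mpst and Mat2b fell and Gss and Mtr rose between the lines. Mpst, a sulfurtransferase that acts on a cysteine-derived compound, fell by 2.43 (SE 0.18, limma adjusted p = 0.00017). In tumors against MUC1-CD culture 0 of the 8 passed limma's adjusted threshold and 3 had an unadjusted p under 0.05.

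Of 10 other amino acid synthesis genes, 5 fell (Aldh18a1, Gpt, Pycr3, Glul and Oat) and 2 rose (Got1 and Got2) between the lines. Aldh18a1, which starts proline synthesis from glutamate, fell by 1.31 (SE 0.16, limma adjusted p = 0.00093), and Pycr3, a reductase at the end of proline synthesis, fell by 1.24 (SE 0.17, limma adjusted p = 0.0014). Oat, which links ornithine to the same route, fell by 0.72 (SE 0.11, limma adjusted p = 0.0080) in tumors against MUC1-CD culture and was the only gene of the list called there in the fit of all arrays. Gpt2 (-0.83, SE 0.37) and Got2 (-0.79, SE 0.28) did not pass there. The fit of the 4 compared arrays called 5 genes of the list, of which 2 rose and 3 fell. That fit called 48.4% of all genes (25.9% higher and 22.6% lower).

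Of 7 eIF2 alpha kinases and phosphatase subunits, Ppp1r15b, which directs a phosphatase to eIF2 alpha, fell by 1.23 (SE 0.20, limma adjusted p = 0.0030) between the lines and 0 rose. Eif2ak4 encodes GCN2, the kinase that senses uncharged tRNA, and it fell by 1.07 (SE 0.16, limma adjusted p = 0.0067) in tumors against MUC1-CD culture. The list median there was 0.48: Eif2ak3 (0.86, SE 0.25), Ppp1r15a (0.76, SE 0.29), Eif2ak1 (0.50, SE 0.15) and Ppp1r15b (0.48, SE 0.20) had unadjusted p under 0.05 but did not pass limma's adjusted threshold. The fit of the 4 compared arrays called 6 of the 7, with 4 higher and 2 lower. In that fit 25.9% of all genes were called higher and 22.6% lower (48.4% either way). Ppp1r15a, whose product also directs the phosphatase to eIF2 alpha, rose by 1.33 (SE 0.29, limma adjusted p = 0.0087) from Vector culture to tumors. Among 13 other ATF4 and CHOP targets the directions were mixed: Atf3, Chac1, Nupr1 and Herpud1 fell and Ero1a, Gdf15 and Vegfa rose between the lines. Nupr1, a stress-induced nuclear protein, fell by 1.05 (SE 0.13, limma adjusted p = 0.0012), and Ero1a, an oxidase of the endoplasmic reticulum, rose by 1.49 (SE 0.14, limma adjusted p = 0.00036). Vldlr, a lipoprotein receptor, fell by 2.11 (SE 0.14, limma adjusted p = 0.00032) in tumors against MUC1-CD culture. It was the only gene of that list called there in the fit of all arrays. The fit of the 4 compared arrays called 3 of the 13 higher and 6 lower, beside 25.9% and 22.6% of all genes. Of 11 endoplasmic reticulum chaperones and their regulators, Pdia6, Dnajc3 and Calr rose and Creld2 fell between the lines. The median was 0.37, and 0.18 to 0.60 when 1 array was left out. In tumors against MUC1-CD culture 0 passed limma's adjusted threshold and 2 had an unadjusted p under 0.05.

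**Figure D4:**
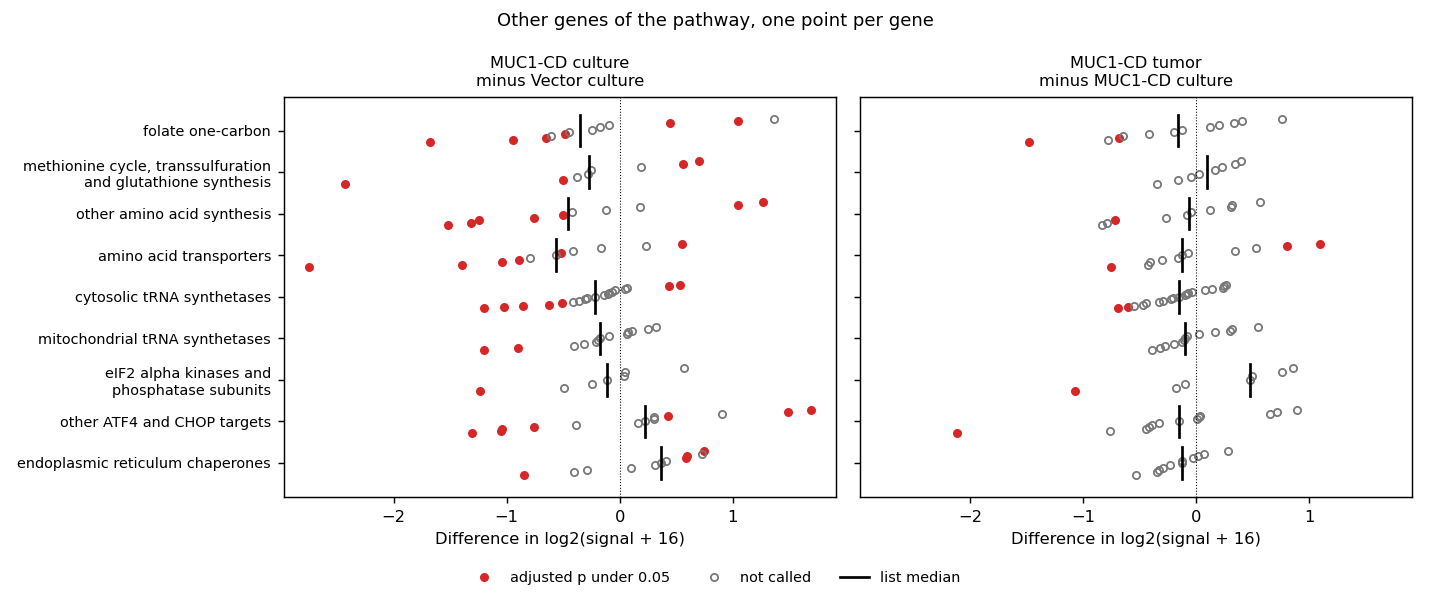
Differences in log2(signal + 16) of the tested genes of the 9 lists, one point per gene, filled where the limma adjusted p is under 0.05, with a bar at each list's median. Transporters reach -2.75 (Slc38a1) between the cultured lines, and few points are filled between tumors and MUC1-CD culture.

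Setting the promoter match beside these calls was chosen after the data were seen. Of the 15 tested list genes with a match, 11 fell and 1 (Got1) rose between the cultured lines, with a median of -0.76. Of the 77 with a promoter window but no match, 12 fell and 11 rose, with a median of -0.12. Tested list genes without a promoter window are left out of this split. Over all 104 tested list genes, 29 fell and 15 rose. Without chromosome 7, the counts were 9 of 13 and 9 of 73 that fell. Of 143 tested genes with a match outside the lists and members, 34.3% fell and 16.8% rose, where 24.5% fell and 21.2% rose among 8193 without one. Between tumors and MUC1-CD culture, 1 of the 15 list genes with a match fell (Slc1a4) and 0 rose by limma's adjusted test, and 5 fell and 2 rose of the 77 without one. Several lists name known ATF4 targets, so they are no independent sample of genes with a match.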

How the data were processed

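RNA of 6 cultures or tumors was hybridised to Rat Genome 230 2.0 arrays, with 2 arrays in each of 3 groups taken from the sample titles. The deposited values are MAS5 signals, a linear intensity for each probe set, per the submitters' processing notes. No source used here gives the MAS5 version or detection calls. The table held 31042 probe sets beside 57 controls, and 20826 named a single gene in the platform annotation, while 436 named several and 9780 were not listed. Symbols were updated through Entrez identifiers to GRCr8 (20758 matched).

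The members and lists were chosen with earlier results of these data known. Intensity was taken as log2(signal + 16), and 18625 probe sets with a mean signal of 61.6 or more, the 40th percentile, entered the fit. Groups were compared with limma 3.58.1 in R 4.3.3 (lmFit and trended eBayes) in 1 fit of all 6 arrays, two-sided, with Benjamini-Hochberg adjustment over all kept probe sets and a threshold of 0.05. The script was tested on simulated data with an equal spread on all arrays, so the wider spread of the Vector pair was not covered. For each gene the brightest kept probe set was used, and all 12 member probe sets were kept. Named list genes were up to 3 with the smallest p per list and comparison, and those that a count of 5 or fewer singled out. Promoter windows are those of RefSeq. The 3 comparisons share groups, so their values are not independent of each other. Only 2 arrays per group limit the precision, and p values measure the spread between these arrays. Alternatives were the pseudocount, filter, scaling, trend, replicate block, averaging of probe sets, fits of 2 groups and leaving out each array.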

Additional observations from a re-analysis of the deposited data

How the results depend on the processing

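Lists are given in the order folate, methionine and glutathione, other amino acid synthesis, transporters, cytosolic synthetases, mitochondrial synthetases, eIF2 alpha regulators, other ATF4 and CHOP targets, and chaperones, and values are genes called unless said otherwise. In the fit of the 4 arrays of tumors and MUC1-CD culture alone, 8144 probe sets were called in place of 2952. That fit called 48.4% of all genes, and the lists had 5, 3, 5, 8, 11, 2, 6, 9 and 5 genes called. In the fit of tumors and Vector culture alone, where 41.3% of all genes were called, the chaperones had 2. Leaving out each array in turn gave 4391 to 11503 probe sets called between the cultured lines, 572 to 8097 between tumors and MUC1-CD culture, and 5884 to 12434 between tumors and Vector culture. Members called between tumors and MUC1-CD culture ranged from 2 to 8, the difference of Shmt2 from -0.71 to 0.34 between the lines and from -0.48 to 0.57 between tumors and Vector culture, and that of Atf5 from -0.60 to 0.39 in the latter. The same ranges for lists between the cultured lines were 0 to 8 (folate), 1 to 6 (methionine), 4 to 8 (other synthesis), 3 to 12 (cytosolic), 2 to 4 (mitochondrial), 1 to 5 (eIF2 alpha), 6 to 12 (other targets) and 2 to 8 (chaperones). Between tumors and MUC1-CD culture they were 1 to 5, 0 to 3, 0 to 5, 0 to 8, 0 to 11, 0 to 2, 0 to 6, 1 to 9 and 0 to 5, in the order of the 9 lists. Between tumors and Vector culture they were 2 to 6 (methionine), 7 to 14 (cytosolic), 2 to 5 (mitochondrial), 1 to 6 (eIF2 alpha), 6 to 12 (other targets) and 2 to 10 (chaperones). With each array divided by its median signal, 12 cytosolic synthetases and 3 eIF2 alpha regulators were called between the lines. That scaling called 52.7% of all genes between the lines, 26.8% between tumors and MUC1-CD culture and 66.2% between tumors and Vector culture. Under the same scaling 1 methionine, 2 other synthesis, 5 transporter, 6 cytosolic, 1 mitochondrial, 6 other target and 2 chaperone genes were called between tumors and MUC1-CD culture, where Shmt2 turned to -0.039. Between tumors and Vector culture it gave 8 folate, 17 cytosolic and 8 mitochondrial genes, and Shmt2 turned to -0.54. That scaling also moved the share of called genes that were higher from 45.9% to 24.6%, from 52.3% to 22.2% and from 48.2% to 18.0% in the 3 comparisons. Quantile normalization gave 2 eIF2 alpha regulators between the lines, 3 other targets and 2 chaperones between tumors and MUC1-CD culture, and 5 mitochondrial synthetases between tumors and Vector culture. Averaging the probe sets of a gene gave 1 mitochondrial and 2 eIF2 alpha genes between the lines, 2 other synthesis, 1 cytosolic, 1 mitochondrial and 2 other target genes between tumors and MUC1-CD culture, and 1 mitochondrial gene between tumors and Vector culture. No filter gave 3 folate genes between the lines, the 60th percentile filter 1 mitochondrial gene against Vector culture in either MUC1-CD group, a pseudocount of 64 gave 2 other targets between tumors and MUC1-CD culture, and eBayes without a trend gave 2 other targets there and 2 chaperones between tumors and Vector culture. Leaving out each array moved the list median of other targets between the lines from -0.08 to 0.29 and that of the eIF2 alpha regulators from -0.20 to 0.0051. Over the settings that kept both arrays of each group, 10 to 12 of the 15 to 17 tested list genes with the promoter match fell between the lines. Of the 63 to 81 tested without the match, 11 to 31 fell. The highest counts, 12 of 15 and 31 of 77, came with each array divided by its median signal. The cause of these shifts was not tested.

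Arrays with the same replicate number did not deviate together (correlations of -0.02, -0.03 and -0.04). A shared effect that is small beside the spread between replicates would not show in these correlations. With the replicate number as a block, 8130, 2390 and 9208 probe sets and 7, 5 and 8 members were called in the 3 comparisons, and Ddit3 lost its call between tumors and MUC1-CD culture.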
